A study of Mus musculus with 23 samples.

Results

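The 85 cytosolic ribosomal protein genes of the mouse count table were described across blood stem cells and megakaryocyte progenitors with and without the JAK2 V617F mutation. They were taken by symbol (Rpl or Rps with a number, or Rpsa, Rplp0, Rplp1 and Rplp2) and by a gene name holding "ribosomal protein", with kinases and pseudogenes left out. The rule used no measured value and took 85 of 24454 rows, of which 33 belonged to the small and 52 to the large ribosomal subunit. The testis-type paralogue Rpl10l and the muscle-type paralogue Rpl3l did not pass the filter on low counts. The other 83 were tested in both library protocols.

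The study sequenced RNA from sorted bone marrow cells of C57BL/6 mice in 8 groups and 23 libraries, with 3 libraries in each of 7 groups and 2 in the other. Mutant mice carried a JAK2 V617F transgene switched on by the Scl-driven Cre recombinase (SclCre;V617F, called V617F here), and controls were wild type (WT). Every mouse, WT included, received tamoxifen for 5 days, with an interval of 12 weeks before the marrow was collected. Long-term haematopoietic stem cells (LT-HSC) were sorted as lineage-negative, Kit+, Sca-1+, CD48-, CD150+ cells, and their CD41-positive and CD41-negative fractions were sorted from the same gate. Megakaryocyte progenitors (MkP) were lineage-negative, Kit+, Sca-1-, CD150+ and CD41+. LT-HSC and MkP libraries were made with SMART-Seq v2 and the CD41 fractions with SMART-Seq v4, so the 2 sets were normalised apart and not compared. The V617F LT-HSC mice were labelled male and the WT LT-HSC mice female, so sex and genotype cannot be told apart there. All MkP mice were labelled female, so sex and cell type cannot be told apart between V617F MkP and V617F LT-HSC. The difference of the V617F effects between MkP and LT-HSC carries the same limit. In the CD41 fractions the WT mice were labelled female, and 1 of the 3 mutant mice male in each fraction. The labels do not say which cell types recombined the transgene.

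Ribosomal proteins are assembled with ribosomal RNA in the nucleolus into a small subunit, which reads the messenger RNA, and a large subunit, which forms the peptide bond. Their messenger RNAs typically start with a run of pyrimidines, the terminal oligopyrimidine (TOP) motif, through which mTOR and Larp1 adjust their translation. Blood formation is sensitive to their dose: loss of 1 copy of several of them causes Diamond-Blackfan anaemia, a failure of red cell production, and stem cells are known for a low rate of protein synthesis.

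The sequences around the start sites show what the members have in common outside their coding parts. In RefSeq's table for GRCm38.p6, 64 of the 85 members had a promoter entry. An unbroken run of at least 8 C or T bases within 20 bases of the annotated start was found in 29 of the 64 members (45.3%) and in 4271 of 26961 other genes (15.8%). In the 250 bases before the start, CGGAAG, the core of ETS family sites, stood on either strand in 51.6% of members and 13.7% of other genes. GGCGGG, the core of SP family sites, stood in 56.3% against 32.6%, CCAAT in 26.6% against 34.5%, and TATAAA in 6.25% against 13.0%. These are matches of letters, not measured binding, and a run within the window can lie before the start, outside the messenger RNA.

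Shown here are 6 of the genes that were higher in CD41-positive cells of both genotypes, the comparison in which most members passed the test. Each line runs from 40 bases before to 25 bases after the annotated start on the plus strand of GRCm38.p6, and capitals mark the longest run of C and T within 20 bases of the start. The windows are chr9:120127726-120127790 for Rpsa, chr7:28350649-28350713 for Rps16, chr11:101442205-101442269 for Rpl27, chr2:180257339-180257403 for Rps21, chr5:121204461-121204525 for Rpl6 and chr9:66946046-66946110 for Rps27l.
Rpsa: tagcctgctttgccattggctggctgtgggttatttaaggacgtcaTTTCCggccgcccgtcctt
Rps16: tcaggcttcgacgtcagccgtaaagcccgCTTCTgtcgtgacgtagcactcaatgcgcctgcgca
Rpl27: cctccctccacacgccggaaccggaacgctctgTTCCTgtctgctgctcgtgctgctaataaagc
Rps21: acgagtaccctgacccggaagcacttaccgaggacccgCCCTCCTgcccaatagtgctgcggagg
Rpl6: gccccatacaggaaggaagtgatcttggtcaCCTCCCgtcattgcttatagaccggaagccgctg
Rps27l: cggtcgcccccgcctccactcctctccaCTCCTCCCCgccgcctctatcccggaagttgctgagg
The longest run was 5 bases in Rpsa, Rps16 and Rpl27, 6 in Rpl6, 7 in Rps21 and 9 in Rps27l, so among these 6 only Rps27l reached 8. Relative to the annotated start, the runs of Rps27l (from -12), Rps16 (-11), Rpl6 (-9) and Rpl27 (-7) lay wholly before it. That of Rps21 (-2) crossed the start and that of Rpsa (6) came after it. A run in this window is therefore not a test for a TOP motif.

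Libraries held 17620485 to 49191435 counts with SMART-Seq v2 and 17579314 to 28460156 with v4. In CPM, counts scaled to a common library size, the summed level of 10 LT-HSC marker genes with v2 was 1877 to 5228 in WT LT-HSC. It was 1956 to 2240 CPM in WT MkP, and LT-HSC WT 30 lay under all 3 WT MkP libraries. The genes in this sum behaved unlike each other between WT LT-HSC and WT MkP. Procr (56.9 to 192 against 0 to 0.0327 CPM) and Ly6a (70.7 to 525 against 0.686 to 2.47 CPM) did not overlap. Kit (153 to 1037 against 476 to 634 CPM) and Slamf1 (21.9 to 42.7 against 29.6 to 80.9 CPM) did. With v4 the sum was 4864.5 to 7824 CPM in CD41-negative and 3449 to 3456 CPM in CD41-positive WT libraries. The sum of 10 MkP markers with v2 was 4876 to 6484 CPM in MkP and 973 to 3376 CPM in LT-HSC. With v4 it was 1032 to 1835 CPM in CD41-negative and 2212 to 3470 CPM in CD41-positive libraries. Itga2b, which encodes CD41, was at 96.4 to 232 CPM in CD41-negative and 611 to 916 CPM in CD41-positive libraries. Jak2 counts, which do not tell the mutant from the normal allele, were 14.5 to 46.4 CPM in WT and 65.6 to 128 CPM in V617F v2 libraries, and 165 to 238 against 174 to 258 CPM with v4. Some libraries stood apart. LT-HSC WT 30 correlated with the other WT LT-HSC libraries at 0.754 and 0.756 (Spearman, across genes, which are not independent replicates), and those with each other at 0.894. It also held the highest monocyte (2273 CPM) and lymphoid (385 CPM) marker sums of the LT-HSC libraries, where the others stood at 492 to 994 and 52.5 to 108.9 CPM. The part of these in the LT-HSC results was not tested. CD41-negative WT 1 and 3 held 15742 and 16144 CPM of the mitochondrial leucyl-tRNA synthetase gene Lars2, against 968 to 1556 CPM in the other v4 libraries. The sum of 7 rows of rRNA-like and technical signal was 3932 to 24058 CPM in CD41-negative WT and 3404 to 4947 CPM in the other v4 groups. Mir6236 was at 59.2 to 1012 CPM against 49.6 to 63.5 CPM in the same groups. The part of this signal in the members' values was not tested. Of 18 libraries labelled female, 13 had more than 10 CPM of the Y-linked Ddx3y, together with Xist, so the labelled sex is not a clean split in these libraries. The summed level of 10 granulocyte marker genes, a cell type outside every gate, was 3746 to 6863 CPM in WT and 475 to 1177 CPM in V617F LT-HSC, and 8334 to 12299 against 1131 to 2575 CPM in MkP, with no marker at 0 in any of these 4 groups. In the CD41 fractions it was 51.8 to 580 CPM.

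Levels per length, in length-scaled TPM, spread widely among the members. With v4 the large-subunit genes Rpl32 (2355 TPM) and Rpl4 (1789 TPM) and the small-subunit gene Rps9 (1712 TPM) were highest, and the median of the 83 members at or above 1 TPM was 277 TPM. With v2 Rpl4 (2884 TPM) and Rpl35 (2162 TPM) were among the highest, with a median of 303 TPM over 82 members. At the low end stood Rpl39l, a testis-type copy of Rpl39 (1.05 TPM with v4), Rpl28 (1.76 with v4 and 3.98 with v2) and Rpl21 (7.19 and 12.6). Rpl10l had 0 counts in all 11 v4 libraries and 1 count in 1 v2 library, and Rpl3l was at most 0.339 CPM in any library.

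Reads of ribosomal protein genes can be shared with their processed copies, and how such reads were counted is not given in the sources used here. RefSeq lists 321 ribosomal protein pseudogenes by symbol, and 64 members have at least 1. The 37 tested members with 0 or 1 such symbols had a median of 358 TPM with v2 and 440 TPM with v4. The 24 tested members with 5 or more had medians of 157 and 172 TPM. Rpl21, low in both protocols, has 15 symbols. The count table itself held 22 ribosomal protein pseudogene rows, which took 0.0797 to 0.189% of the counts. Levels and differences of members with many copies are therefore uncertain.

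**Figure D1:**
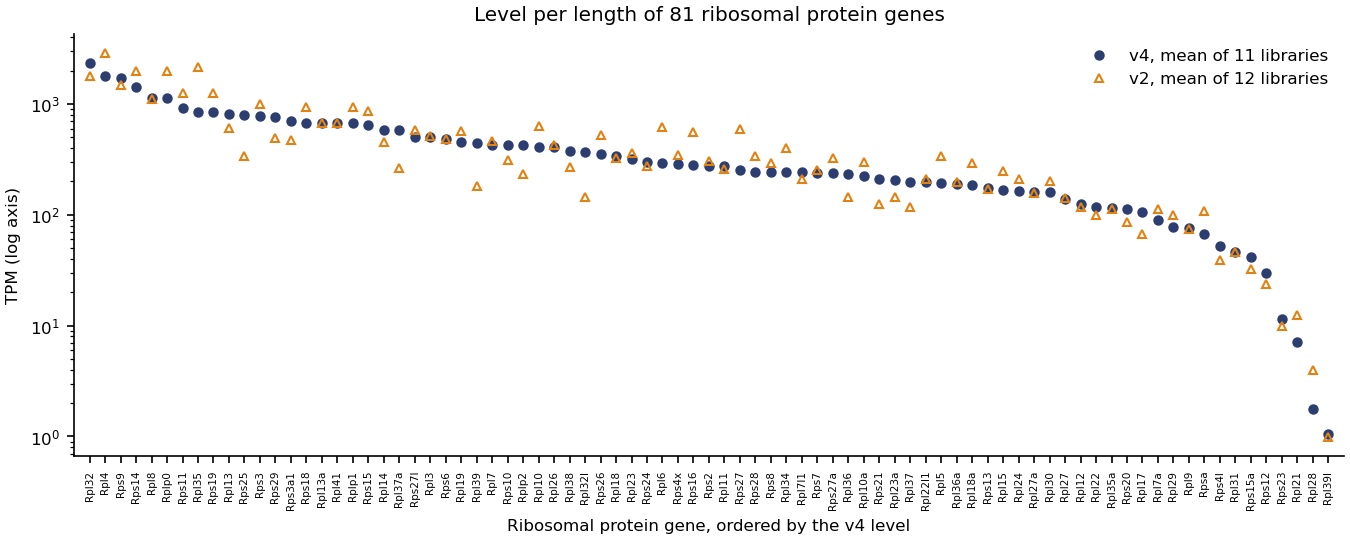
Mean level per length (TPM, log axis) of 81 of the 83 tested members in the 11 v4 libraries (blue circles) and the 12 v2 libraries (orange triangles), ordered by the v4 level. Most members lie between 100 and 1000 TPM, and Rps23, Rpl21, Rpl28 and Rpl39l sit apart at the low end in both protocols.

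The members also differed in how steady they were across groups. Over the 4 v4 group means the coefficient of variation was 4.48% for Rps9, 4.59% for Rpl3 and 5.00% for Rpl13, and it was largest for Rpl32l (62.9%), Rpl35a (38.0%) and Rpl27 (36.0%). Over the 4 v2 group means it ran from 5.98% for Rpl6 and 9.91% for the stalk protein gene Rplp2 to 45.3% for Rpl5, 49.6% for Rpl22l1 and 59.8% for Rpl21. These are variations of the level in TPM, not of the CPM used in the tests. Several of the largest came with libraries that disagreed within a group. In CD41-negative WT 1, 3 and 4, Rpl32l was at 1010, 867 and 220 TPM. In the same libraries Rpl35a was at 35.2, 19.1 and 118 TPM and Rpl27 at 68.6, 51.1 and 127 TPM. In MkP WT 30, 31 and 32, Rpl21 was at 11.4, 43.8 and 11.3 TPM.

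Together the 85 members took 0.924 to 2.60% of the counts of a library. The share was 1.10% ± 0.164 (SD, n = 3) in CD41-negative WT and 1.11% ± 0.175 (SD, n = 3) in CD41-negative V617F libraries. It was 1.35% ± 0.0471 (SD, n = 2) in CD41-positive WT and 1.48% ± 0.0987 (SD, n = 3) in CD41-positive V617F libraries. Every CD41-positive library of a genotype lay above every CD41-negative library of that genotype. In MkP the share was 1.40% ± 0.0713 in WT and 2.01% ± 0.139 in V617F (SD, n = 3 each), and the groups did not overlap. In LT-HSC it was 1.62% ± 0.860 in WT and 2.13% ± 0.467 in V617F (SD, n = 3 each), with single WT libraries at 2.60, 0.995 and 1.26%, so these groups overlapped. In bulk samples, fewer cells of a type and less RNA per cell cannot be told apart.

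**Figure D2:**
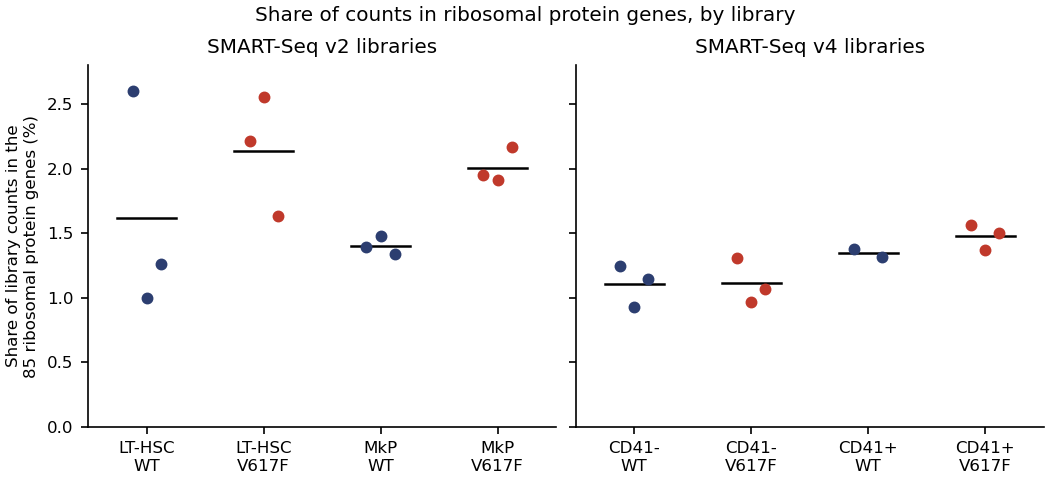
Share of each library's counts in the 85 ribosomal protein genes (percent, from 0), with 1 point per library, a bar at each group's mean, WT in blue and V617F in red. The 3 V617F MkP libraries lie above the 3 WT MkP libraries, 1 WT LT-HSC library stands at 2.60%, and the CD41-positive libraries lie above the CD41-negative ones of the same genotype.

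The clearest difference among the members lay between the CD41-positive and CD41-negative fractions of LT-HSC, where CD41 marks the stem cells with a bias to the platelet lineage. In WT cells 23 members were higher and 1 lower in the CD41-positive fraction (edgeR quasi-likelihood test, Benjamini-Hochberg adjusted p under 0.05 over 14467 genes), and in V617F cells 39 were higher and none lower. Of all genes, 15.7% were higher and 18.2% lower in WT, and 16.4% higher and 17.9% lower in V617F. The median member difference was 0.41 on the log2 scale in WT and 0.55 in V617F, against -0.04 and -0.02 for all genes tested. In V617F all 83 tested members had a positive difference, and in WT 66 of them. Members whose libraries did not overlap numbered 48 higher and 0 lower in WT (all genes 27.4% and 29.3%) and 67 higher and 0 lower in V617F (28.4% and 27.7%), and 41 members did so in both genotypes. The WT and V617F comparisons share no library.

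Rpsa, a small-subunit protein also known as the laminin receptor precursor, had the smallest adjusted p in both genotypes. Its level in WT was 46.2, 36.9 and 45.0 CPM in CD41-negative and 60.2 and 64.2 CPM in CD41-positive libraries. In V617F it was 44.4, 43.8 and 43.7 CPM against 72.4, 66.3 and 70.9 CPM. No CD41-positive library reached down to a CD41-negative one. The log2 difference was 0.54 ± 0.12 (SE, edgeR adjusted p = 0.00712) in WT and 0.67 ± 0.11 (SE, edgeR adjusted p = 0.000760) in V617F.

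Among small-subunit members, 11 of 33 were higher in WT and 16 of 33 in V617F. Rps16 stood at 44.7, 27.1 and 60.2 CPM in CD41-negative and 90.7 and 92.3 CPM in CD41-positive WT libraries, and at 72.1, 48.4 and 57.9 against 123, 96.9 and 115 CPM in V617F. Its log2 difference was 1.06 (edgeR adjusted p = 0.00893) in WT and 0.91 (edgeR adjusted p = 0.00913) in V617F. CD41-negative library 3 was the lowest WT library, and no CD41-positive library overlapped the negative ones.

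Rps15, which helps the small subunit leave the nucleus, was at 155, 99.9 and 123 CPM in CD41-negative and 261, 213 and 251 CPM in CD41-positive V617F libraries. Its log2 difference was 0.94 ± 0.16 (SE, edgeR adjusted p = 0.000793) in V617F and 0.51 in WT (edgeR adjusted p = 0.0399). Rps27l, the p53-responsive relative of Rps27, was at 117, 77.2 and 92.8 against 200, 166 and 206 CPM in V617F, a log2 difference of 0.99 ± 0.18 (SE, edgeR adjusted p = 0.00143). In both genes the V617F fractions were well apart.

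Among the 50 tested large-subunit members, 12 were higher and 1 lower in WT, and 23 were higher in V617F. Rpl27, a Diamond-Blackfan anaemia gene, was at 24.2, 14.4 and 37.0 CPM in CD41-negative and 56.9 and 53.4 CPM in CD41-positive WT libraries, and at 43.8, 27.2 and 34.3 against 72.0, 57.4 and 69.5 CPM in V617F. Its log2 difference was 1.13 in WT and 0.92 in V617F. Of the stalk proteins, which recruit elongation factors, Rplp1 (0.57) and Rplp2 (0.78) were higher in V617F, while Rplp0 was at 0.47 with an edgeR adjusted p of 0.118. None of the 3 passed in WT. Rpl5 and Rpl11 bind the 5S ribosomal RNA and, when free, the p53 regulator Mdm2. Rpl5 passed in WT (0.68, edgeR adjusted p = 0.0396) and Rpl11 in V617F (0.56, edgeR adjusted p = 0.0182), and each missed in the other genotype (0.47 and 0.35).

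Rpl22 and its close copy Rpl22l1, a pair known to regulate each other, were each called in 1 genotype. Rpl22l1 was higher in WT (log2 difference 0.93, edgeR adjusted p = 0.0320; 0.47 in V617F, edgeR adjusted p = 0.202) and Rpl22 in V617F (0.37, edgeR adjusted p = 0.0395), while Rpl22 was at 0.38 in WT with an edgeR adjusted p of 0.0537. The difference of the V617F effects on Rpl22l1 was -0.46 (edgeR adjusted p = 0.674). Rpl41, among the shortest proteins known, was at 98.8, 66.6 and 85.9 CPM in CD41-negative and 175, 143 and 175 CPM in CD41-positive V617F libraries, a log2 difference of 0.97. In WT it was at -0.01 (edgeR adjusted p = 0.987), where CD41-negative libraries 1, 3 and 4 stood at 161, 158 and 95.4 CPM and the CD41-positive ones at 137 and 138 CPM. Of the X-linked members, Rpl36a was higher in WT (0.76) and Rpl39 in V617F (0.90), and Rpl10 and Rps4x passed in neither. Of the 23 members listed as Diamond-Blackfan anaemia genes, 8 were higher in WT and 12 in V617F, with medians of 0.48 and 0.60. Over all 83 tested members 27.7% were higher in WT and 47.0% in V617F, with medians of 0.41 and 0.55. The best known of the Diamond-Blackfan anaemia genes, Rps19, was at 0.51 and 0.44 and passed in neither.

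The member called lower in WT was Rpl32l, a gene named for its likeness to Rpl32, with which it may share reads. It was at 287, 197 and 51.8 CPM in CD41-negative and 68.7 and 60.7 CPM in CD41-positive WT libraries. The high values were those of CD41-negative libraries 1 and 3, the ones with high Lars2. Without them its log2 difference changed from -1.47 (edgeR adjusted p = 0.0336) to 0.32.

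In all, 14 members were higher in both genotypes, which is 60.9% of the 23 called in WT and 35.9% of the 39 called in V617F. For all genes the same shares were 67.9% and 65.1%. Among the 14 were Rpsa, Rps4l, Rps15, Rps16, Rps21, Rps23, Rps27l, Rpl6, Rpl8, Rpl17, Rpl27, Rpl29 and Rpl30. A further 34 members were called higher in 1 genotype and 35 in neither, Rpl32l among the latter. The test of the difference between genotypes, given further on, called no member.

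The WT count rested on single libraries. It fell from 24 members to 2 without CD41-positive WT 3, to 0 without CD41-positive WT 4 and to 10 without CD41-negative WT 3, and it rose to 41 without CD41-negative WT 4. Without CD41-negative WT 1 and 3 together, 1 member passed, and it was Rpsa (0.46, edgeR adjusted p = 0.0346), while the median stayed at 0.31. The V617F count was 20 without CD41-negative V617F 2, 21 without CD41-positive V617F 1 and 22 without library 3 of either fraction. Fitted on the compared groups alone, 5 members passed in WT and 69 in V617F, and the cause of this change was not tested. The shares of all genes called in these fits are not given here.

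**Figure D3:**
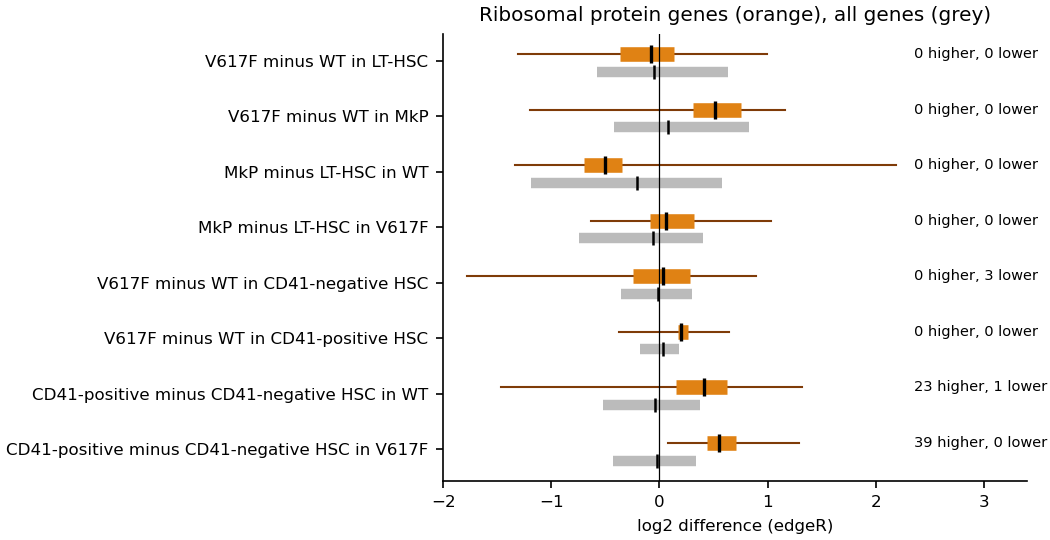
Log2 differences in the 8 comparisons between groups: for the 83 tested ribosomal protein genes, orange boxes span the middle range (quartiles), lines the lowest to highest and black ticks the median, and grey boxes span the quartiles of all genes tested, with the members called printed at the right. The members lie to the right of all genes in both CD41-positive against CD41-negative comparisons (medians 0.41 and 0.55) and in MkP with V617F (0.52), and to the left in WT MkP against LT-HSC (-0.50).

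**Figure D4:**
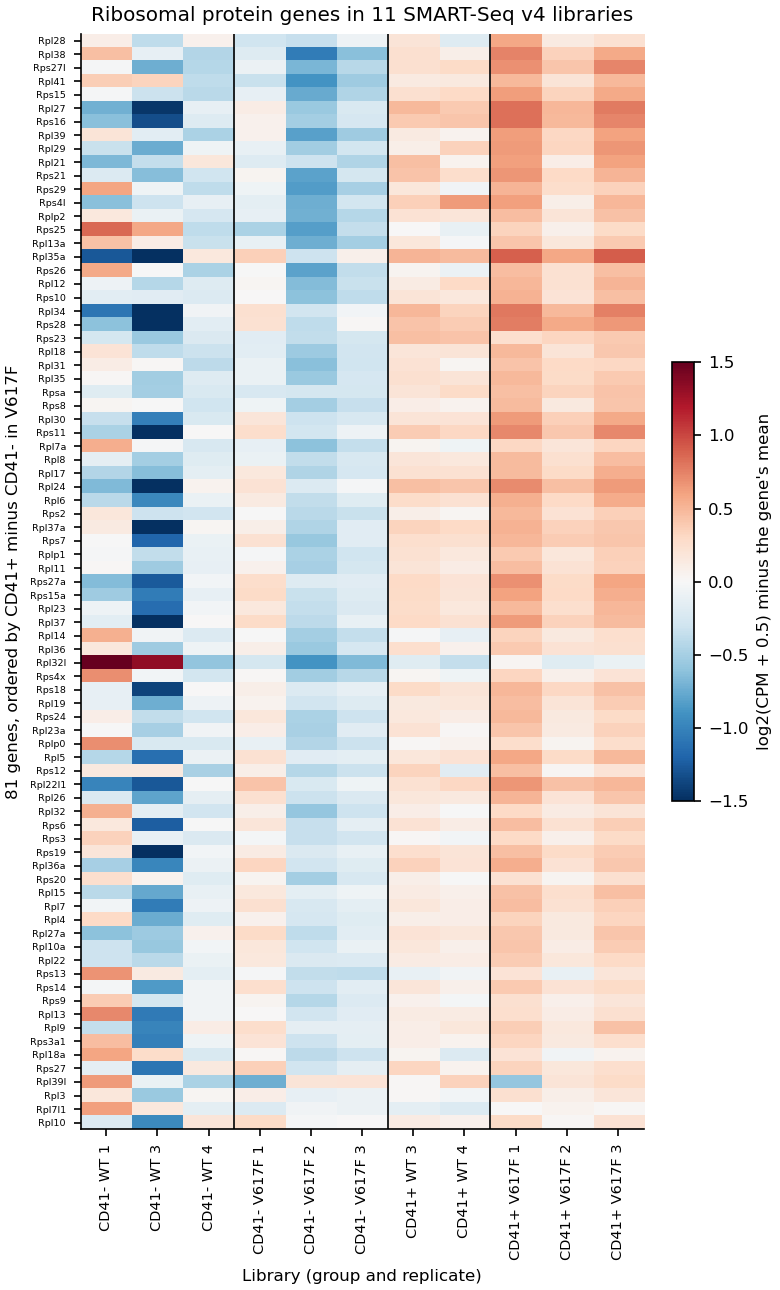
Level of 81 of the 83 tested members (rows) in each of the 11 v4 libraries (columns), as log2 of CPM + 0.5 minus the gene's mean, red above and blue below, with rows ordered by the CD41 difference in V617F. The CD41-positive columns are red in most rows, CD41-negative WT 3 is the bluest column in many of them, and Rpl32l is red in CD41-negative WT 1 and 3.

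Ribosomal protein genes are short, and in these libraries the CD41 difference moved with gene length. The median length of the members was 725 bases against 2207 bases over all rows, and 47.1% of members but 10.9% of rows were at most 700 bases long. Among genes outside the list with a mean over 64 CPM, the median log2 difference in WT was 0.61 for the 75 genes of up to 700 bases, 0.43 for the next class up to 1000 bases, 0.18 for the class that ends at 2500 bases and -0.13 above 4000 bases. In V617F the same classes stood at 0.80, 0.52, 0.22 and -0.12. The 23 members of up to 700 bases in that level class had medians of 0.36 in WT and 0.69 in V617F, and 17.4% and 60.9% of them were called higher, against 61.3% and 77.3% of the other short genes.

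The short members thus had lower medians and lower shares of calls than other short genes of that level class, a difference with no test. With an offset for gene length in each library, an alternative chosen after seeing the data, 15 members passed in WT with a median of 0.07, and 10 in V617F with a median of 0.23. Rpsa, whose row is 1861 bases long, kept a log2 difference of 0.47 in WT under that offset (edgeR adjusted p = 0.0116). Its WT call was lost without CD41-positive WT 4 (edgeR adjusted p = 0.0828) and with the compared groups alone (edgeR adjusted p = 0.0517). Whether length moves with RNA quality or with the cells themselves was not tested.

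**Figure D5:**
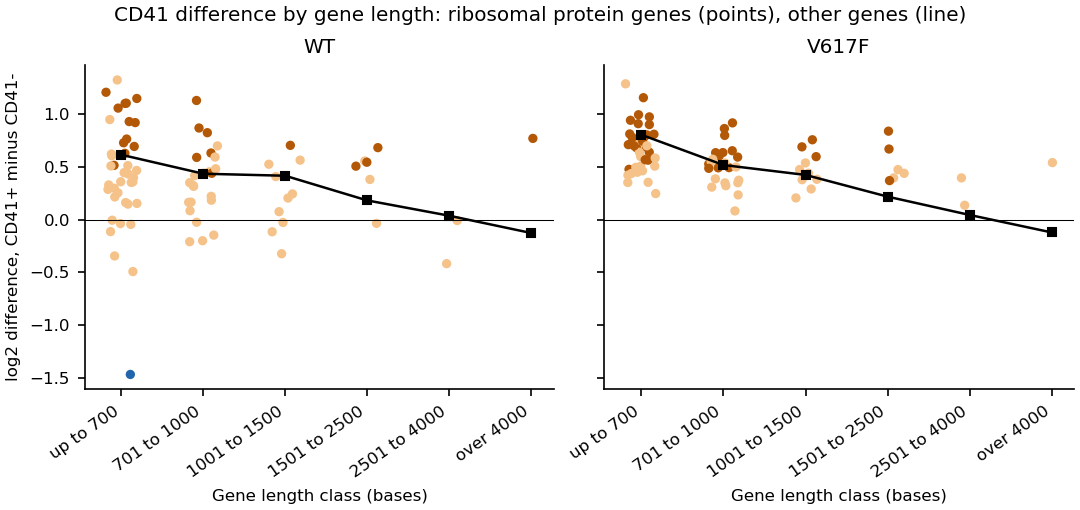
Log2 difference between the CD41-positive and CD41-negative fractions by gene length class in WT and V617F: points are the tested ribosomal protein genes (dark orange called higher, blue called lower, pale not called), and black squares joined by a line are the median of other genes with a mean over 64 CPM. The line falls from 0.61 to -0.13 in WT and from 0.80 to -0.12 in V617F, and the members lie on both sides of it.

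Other lists were counted in the same comparison. The 10 megakaryocyte progenitor markers had 9 tested genes, of which 8 were higher in the CD41-positive fraction in both genotypes. Of the 10 LT-HSC markers, 6 were lower in WT and 5 in V617F, against 18.2% and 17.9% of all genes. Slamf1 of that list went the other way. It was at 39.8 to 57.9 CPM in CD41-negative and 83.4 to 84.96 CPM in CD41-positive WT libraries. In V617F it was at 52.9 to 57.8 against 93.1 to 100.7 CPM. How many LT-HSC markers were called higher is not given here. The part of the markers of either list in the members' difference was not tested. The counts of the lists that follow stand against 15.7% of all genes higher in WT and 16.4% in V617F, and against 61.3% and 77.3% of other short genes over 64 CPM. Of 30 ribosome biogenesis genes, 15 were higher in WT and 17 in V617F and none lower, with medians of 0.50 and 0.41. Nhp2, of the box H/ACA particles that modify ribosomal RNA, was at 147.7 CPM ± 5.90 (SD, n = 2) against 68.8 ± 18.2 (SD, n = 3) in WT, a log2 difference of 1.10. Eif6, which keeps the large subunit apart until it is mature, differed by 0.55 in WT and 0.63 in V617F. Of 15 genes listed as translation factors with TOP messages, 5 and 7 were higher. In WT they were led by Nap1l1 (1.14), which encodes a histone chaperone and not a translation factor. In V617F they were led by Eef1d (0.78). Of 19 initiation factors, 9 and 10 were higher, among them Eif2s2 (0.79 and 0.86) and the cap-binding protein Eif4e (0.71 and 0.68).

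The counts of RNA polymerase I genes and of the regulators of ribosome output stand against the shares of all genes called (15.7% higher and 18.2% lower in WT, 16.4% and 17.9% in V617F). Of 13 polymerase I genes, 3 were higher in WT, and 2 were higher and 1 lower in V617F. Of 15 regulators, 4 were higher and 4 lower in WT, and 2 and 2 in V617F. Rheb, which activates mTOR, was higher in both genotypes (0.54 and 0.55), and Tsc2, which restrains it, was lower in both (-0.64 and -0.48). The mTOR partner Rptor was lower in WT (-0.66). Of 4 genes that link free ribosomal proteins to p53, none passed in WT, and the p53 target Cdkn1a was higher in V617F, at 4.45 CPM ± 0.896 against 2.86 ± 0.147 (SD, n = 3 each; log2 difference 0.64). Of 4 ribosomal protein genes outside the rule, 4 were higher in WT and 3 in V617F, among them Fau (0.60 and 0.55). Mitochondrial ribosomal protein genes, a list added later, were higher in 51 of 77 cases in WT and 53 of 77 in V617F, with a median of 0.54 in each, which is 66.2% and 68.8% of the list.

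Within the CD41 fractions few members passed the test between V617F and WT. In CD41-negative cells 3 members were lower and none higher, where 5.48% of all genes were higher and 7.94% lower. The median member difference was 0.03, against -0.01 for all genes, and no member separated the groups in either direction (all genes 16% higher and 14.3% lower). Rpl32l was at 65.0, 41.5 and 49.2 CPM in V617F against 287, 197 and 51.8 CPM in WT (log2 difference -1.78, edgeR adjusted p = 0.0246). Rps25, known for its part in initiation at internal ribosome entry sites, was at 159, 124 and 172 CPM in V617F against 401, 329 and 169 CPM in WT (-0.98, edgeR adjusted p = 0.0283). For Rpl41 the values were 98.8, 66.6 and 85.9 CPM against 161, 158 and 95.4 CPM (-0.72, edgeR adjusted p = 0.0354).

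In all 3 genes WT libraries 1 and 3 were high and WT library 4 lay among or near the V617F libraries. None of the 3 calls was left without either of those libraries, or without any single V617F library. Without WT library 4, 33 members passed, and the share of all genes called in that fit is not given here. Of 10 erythroid markers 8 were lower in V617F, and of 9 tested monocyte markers 5 were lower and 1 higher. Of all genes, 7.94% were lower and 5.48% higher. These marker calls were not checked with WT library 1 or 3 left out. Their part in the members' values was not tested. Among the genes around the members, Larp1, the protein that binds TOP messages, was at 75.6 CPM ± 27.4 in V617F and 178.6 ± 73.1 in WT (SD, n = 3 each), a log2 difference of -1.24 (edgeR adjusted p = 0.0269). The Larp1 call was not checked with WT library 1 or 3 left out. Counts of the biogenesis, polymerase, translation and regulator lists are not given for this comparison. This comparison shares its WT libraries with that of the WT fractions.

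In CD41-positive cells no member passed, where 0.221% of all genes were higher and 0.94% lower. No member had an unadjusted p under 0.05, and DESeq2 called none. Nonetheless 80 of the 83 differences were positive, with a median of 0.20 and a middle range of 0.17 to 0.27, against 0.03 for all genes. Members separated the groups upward in 53 cases and downward in 1 (all genes 23.9% and 17.8%), with 2 WT libraries in that comparison. The downward one was Rps23, at 3.25, 3.44 and 3.66 CPM in V617F and 3.81 and 3.75 CPM in WT. Rpl39, at the exit of the ribosome's peptide tunnel, was at 122, 98.2 and 121 CPM in V617F and 87.0 and 81.9 CPM in WT (0.43 ± 0.24 SE, edgeR adjusted p = 0.568). Among genes outside the list with a mean over 64 CPM and up to 700 bases, the median was 0.25, and that of the 23 members in the same class was 0.22.

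The difference between the 2 genotype effects, positive minus negative fraction, passed for 0 members. It passed for 0% of all genes upward and 0% downward in edgeR's test, where 1274 genes and 15 members had an unadjusted p under 0.05, and DESeq2 called no member. The most extreme members were Rps25 (1.27 ± 0.37 SE), Rpl41 (0.98) and Rpl32l (1.97), each with an edgeR adjusted p of 0.566. These are the genes that were high in CD41-negative WT libraries 1 and 3. Without CD41-negative WT 4, 15 members passed, and the share of all genes called in that fit is not given here.

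In MkP, V617F libraries lay above WT libraries for most members, but none passed the test. The median difference was 0.52, against 0.08 for all genes, and 78 of the 83 differences were positive. Other short genes moved the same way: in the class up to 700 bases with a mean over 64 CPM, the median was 0.44 for the 117 genes outside the list and 0.62 for the 23 members. With the length offset the member median was 0.023. The groups separated upward in 62 members and downward in 0, where 21% of all genes separated upward and 9.99% downward. By adjusted p, 1.62% of all genes were higher and 0.126% lower. A single member had an unadjusted p under 0.05, and DESeq2 called none.

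Rpl5 was at 444, 405 and 467 CPM in V617F and 201, 209 and 231 CPM in WT MkP (1.04 ± 0.50 SE, edgeR adjusted p = 0.360). Rpl36 was at 34.7, 35.3 and 34.9 against 16.7, 18.3 and 11.9 CPM (1.16 ± 0.51 SE, edgeR adjusted p = 0.295). Rpl32 was at 516, 507 and 529 against 293, 291 and 246 CPM (0.90 ± 0.46 SE, edgeR adjusted p = 0.394). In these 3 genes, picked for the smallest p, the MkP groups did not overlap. The spread used in the test was estimated from all 4 v2 groups together, LT-HSC WT included. Its part in the missed calls was not tested. Fitted on the MkP libraries alone, 5 members passed, and the share of all genes called in that fit is not given here. All 23 Diamond-Blackfan anaemia genes had a positive difference, with a median of 0.66, against 78 of 83 and 0.52 over all tested members.

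The exceptions in MkP were Rps4l, an Rps4-like gene, at 12.2, 8.65 and 8.71 CPM in V617F and 30.3, 7.5 and 29.9 CPM in WT, and Rpl21, at 11.4, 13.5 and 13.1 against 10.6, 38.8 and 10.4 CPM. In each, the WT libraries disagreed among themselves. The granulocyte marker sums given above were lower in V617F than in WT MkP, and WT MkP libraries had counts in 11483 to 12463 genes against 14634 to 15697 in the V617F v2 libraries. The part of either in the members' difference was not tested.

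In LT-HSC no member passed the test between genotypes. The median difference was -0.08, against -0.05 for all genes, with 35 of 83 positive. By adjusted p, 0.028% of all genes were higher and 0.035% lower, and no member had an unadjusted p under 0.05. DESeq2 called none. No member separated the groups upward and 1 did so downward, where 13.6% of all genes separated upward and 5.63% downward. The sign of the median was not stable: it was 0.78 without WT 30, -0.43 without WT 32, and 0.25 with all libraries and the length offset.

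Rpl35 showed how far that library stood off, at 1749, 427 and 386 CPM in WT and 516, 474 and 267 CPM in V617F (-1.03 ± 0.53 SE, edgeR adjusted p = 0.472). Rpl22 was at 146, 39.7 and 80.4 CPM in WT and 172, 178 and 126 CPM in V617F (0.84 ± 0.41 SE, edgeR adjusted p = 0.433). Its copy Rpl22l1 was at 62.0, 12.5 and 29.6 against 50.2, 97.2 and 60.1 CPM (1.99-fold, edgeR adjusted p = 0.498). The WT values again overlapped the V617F values through library 30.

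Between MkP and LT-HSC no member passed in either genotype. In WT the median member difference was -0.50, against -0.20 for all genes, and 7 of 83 were positive. All genes passed in 2.32% of cases upward and 6.58% downward. Members separated the groups in 1 case upward and 2 downward, where 8.39% and 12.1% of all genes did. Of the members, 6 had an unadjusted p under 0.05, and DESeq2 called 3. The median turned to 0.38 without LT-HSC WT 30, and to 0.38 with the length offset, which called 3 members. In the class up to 700 bases with a mean over 64 CPM, the median was -0.76 for genes outside the list and -0.66 for the members. Rpl13 was at 202, 193 and 182 CPM in MkP and 568, 355 and 202 CPM in LT-HSC (-0.96 ± 0.35 SE, edgeR adjusted p = 0.101). Rpl21 went the other way, at 10.6, 38.8 and 10.4 against 3.01, 2.75 and 7.36 CPM (2.19 ± 0.79 SE, edgeR adjusted p = 0.100).

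In V617F the MkP and LT-HSC medians were close, with a member difference of 0.06 against -0.06 for all genes and 49 of 83 positive. The labelled sex differed along with the cell type in this comparison. By adjusted p, 0.378% of all genes were higher and 0.714% lower in MkP, and no member passed, had an unadjusted p under 0.05 or was called by DESeq2. Groups separated in 13 members upward and none downward, where 17% of all genes separated upward and 24.5% downward. Rps27l was at 242, 197 and 303 CPM in MkP and 143, 170 and 98.9 CPM in LT-HSC (0.85 ± 0.59 SE, edgeR adjusted p = 0.786). Rpl38, known for its role in the translation of Hox messages, was at 61.5, 56.9 and 78.9 against 44.3, 48.9 and 28.5 CPM (0.70 ± 0.54 SE, edgeR adjusted p = 0.824).

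The V617F effect in MkP minus that in LT-HSC had a median of 0.65 over the members, against 0.13 for all genes, and 78 of 83 were positive. No member passed or had an unadjusted p under 0.05, where 0.427% of all genes passed upward and 0.028% downward, and DESeq2 called none. The members of smallest p were Rpl35 (1.22 ± 0.74 SE, edgeR adjusted p = 0.741) and Rpl12 (1.19 ± 0.75 SE, edgeR adjusted p = 0.762), the second of which was at 99.5, 26.0 and 27.1 CPM in LT-HSC WT. Without LT-HSC WT 30 these became 0.13 and 0.23.

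Few genes around the members passed in the v2 comparisons. In WT MkP against LT-HSC, where 2.32% of all genes were higher, 3 of 30 ribosome biogenesis genes (10%) were higher: Ltv1 (1.61), the nucleolar GTPase gene Gnl3 (1.39) and Gar1 (1.54). Eif3b was the initiation factor that passed (1.33). Of the mitochondrial ribosomal protein genes Mrpl4 was lower (-1.53). No gene of the biogenesis, polymerase, translation or regulator lists passed between V617F and WT in LT-HSC, in MkP or in CD41-positive cells.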

How the data were processed

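Sorted LT-HSC, their CD41 fractions and MkP were profiled by RNA sequencing in 23 libraries. The authors deposited raw read counts per gene with each row's length, and counts were used as deposited. Reads were aligned to mm10 with STAR 2.5.2a, per the submitters' processing notes. How reads were counted, with which annotation and strand setting, is not given in the sources used here. Nothing in the labels says that replicates are separate mice beyond their numbers, so p-values measure the spread between these samples.

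Counts were tested with edgeR 4.0.16 (TMM factors, filterByExpr, quasi-likelihood test) in R 4.3.3, separately for the 12 SMART-Seq v2 and 11 v4 libraries, with all groups of a protocol in 1 fit. p-values were Benjamini-Hochberg adjusted over all genes tested, at a threshold of 0.05. There were 10 comparisons, of which 2 were differences of effects. CPM used TMM factors, and TPM used the deposited lengths. Named members were up to 5 called ones per direction by adjusted p, the 3 of smallest p per direction where none was called, 3 extremes of level and variation, and a fixed set of copies and role holders; of other lists, up to 3 called genes. Members called in both genotypes, Rps21 and Rpl6 among them, were named after their values were seen. Members and gene lists were chosen with earlier results of these data known. DESeq2 1.42.0, other scalings, filters and left-out libraries were alternatives. Values of a few genes are not reported here. The code was tested on simulated data. The shared replicate numbers of the V617F CD41 fractions paired the libraries: deviations correlated at 0.301, 0.419 and 0.298 for equal numbers, as a pattern in the data. No 2 libraries were alike within sampling noise.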

Additional observations from a re-analysis of the deposited data

How the results depend on the processing

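Of the results on all members, 228 alternative values stayed within a set tolerance and 37 moved. The tolerance was 1.5 times for a count and 1 SD between libraries for a median (0.62 with v2 and 0.24 with v4) or a share, so 9 values near 0, 7 medians and 2 shares, turned sign within it. They include CD41-negative V617F against WT (0.03 as reported) at -0.13 without WT 3, -0.080 without V617F 1 and -0.043 without WT 1 and 3, and V617F MkP against LT-HSC (0.06) at -0.088 without LT-HSC V617F 8. With v2 the tolerance for a median was wider than every member median between groups, which ran from -0.50 to 0.52. A fall to near 0 therefore counted as staying within it. The V617F against WT median in MkP was 0.52 as reported and 0.023 with the length offset, and was counted so. Staying within the tolerance thus does not show that a v2 median was stable. For single named members, 672 stayed, 16 gained and 42 lost the call, and 16 turned direction. Depth limits rare members such as Rpl39l, and WT groups of 2 or 3 libraries limit the rest. When an arm keeps 1 library, it is assumed to vary like the other groups. The cause of each shift was not tested unless stated. Counts of members called in an alternative setting, here and above, stand without the share of all genes called in that setting. They do not show whether the members moved more than other genes.

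With DESeq2, 3 members were called in WT MkP against LT-HSC and 6 in CD41-negative V617F against WT. With only the groups compared, 5 were called in MkP V617F against WT, 1 in V617F MkP against LT-HSC, 0 in CD41-negative V617F against WT, 5 between WT and 69 between V617F CD41 fractions. With the length offset, the median was 0.25 in LT-HSC, 0.023 in MkP, -0.057 in CD41-negative and 0.10 in CD41-positive cells for V617F against WT, with 0 calls in LT-HSC, MkP and CD41-positive cells. With it, 3 were called in WT MkP against LT-HSC (median 0.38), 9 in CD41-negative V617F against WT, 15 between WT CD41 fractions (median 0.074) and 10 between V617F fractions (median 0.23). Without CD41-negative WT 1 and 3, chosen after seeing the data, 0 were called in CD41-negative V617F against WT and 1 between WT fractions.

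Leaving out 1 library at a time gave 0 to 2 calls (median -0.89 to 0.38) in WT MkP against LT-HSC, a median of -0.43 to 0.78 in LT-HSC V617F against WT, 0 to 33 calls in CD41-negative V617F against WT, 0 to 41 between WT and 20 to 50 between V617F CD41 fractions, and 0 to 15 for the difference of the CD41 effects.

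Directions turned for Rpl35 in LT-HSC without WT 30 (0.058; range to -1.49), and in MkP for Rpl28 without WT 30 (0.013; range to -0.42) and Rpl21 without WT 31 (0.31; range to -0.90). In CD41-positive cells Rps4l turned without WT 4 (0.057) or V617F 2 (0.049; range to -0.23), and Rpl39l without WT 4 (0.023) or V617F 1 (0.087; range to -0.79). Without CD41-negative WT 1 and 3, Rpl32l turned between WT fractions (0.32), as did the differences of effects of Rpl22l1 (0.20), Rpl34 (0.23) and Rpl36a (0.058). For Rpl39l, with under 2 CPM in every library, the MkP minus LT-HSC effect was 0.26, 0.31, 0.35, 6.15 and 0.18 without LT-HSC WT 30, WT 32, V617F 7, MkP WT 30 and MkP V617F 3, with -6.86 as the lowest value.

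With the replicate block, 39 members were called between WT CD41 fractions, whose numbers were not shown to pair (r = 0.043 and 0.024). In the V617F fractions 41 were called, and in WT MkP against LT-HSC 0, where equal numbers correlated at -0.033 to 0.023. The replicate block changed no other count by over 1.5 times.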
